A study of Mus musculus with 6 samples.

Results

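The cytosolic ribosomal protein genes were examined in 3 AUF1-null and 3 wild-type samples of satellite cells, which are muscle stem cells, from mice aged 4 months. The genes were chosen by name alone. Every row of the authors' deposited table whose symbol is Rpl or Rps followed by a number and at most 1 letter was taken, together with Rplp0, Rplp1, Rplp2 and Rpsa. This gave 79 of 23361 rows, 48 for the large subunit and 31 for the small subunit. AUF1-null mice lack the RNA-binding protein AUF1, the product of Hnrnpd, and the design text describes the mice as bred through C57BL/6 of a 129 background. The labels describe the cells as primary satellite cells of hindlimb muscle, sorted on the surface proteoglycan Sdc4 after collagenase digestion. They do not say whether the samples of a genotype came from separate mice or from pools.

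The table holds 1 pooled value per condition in FPKM, which scales fragments to transcript length and library size, so no replicate spread stands beside any level. It names its conditions q1 and q2 without a genotype, and no label used here links them, so every difference below is q2 relative to q1. In the authors' deposited table Hnrnpd itself was listed at 5.59 FPKM in q2 and 7.50 FPKM in q1 (Cuffdiff p = 0.291), which did not pass the test. Of the satellite cell markers, Pax7 was low, at 0.854 FPKM in q2 and 1.16 FPKM in q1, while the endothelial marker Pecam1 was at 327 FPKM in q2 and 421 FPKM in q1 in the authors' deposited table. The 7 satellite cell markers summed to 385 FPKM in q2 and 317 FPKM in q1, with none called. Sdc4, the sorting marker, made up most of that sum, at 270 FPKM in q2 and 173 FPKM in q1 in the authors' deposited table. The other 6 summed to 115 FPKM in q2 and 144 FPKM in q1, with 3 of them higher and 3 lower in q2. Vcam1, the highest of these 6, was at 65.1 FPKM in q2 and 90.8 FPKM in q1 in the authors' deposited table. The 4 endothelial markers summed to 1413 FPKM in q2 and 1632 FPKM in q1, with none called. None of the 4 muscle fibre markers (2716 FPKM in q2 and 1430 FPKM in q1), of 3 tested erythroid markers (916 FPKM in q2 and 711 FPKM in q1) or of 3 fibroblast markers (1486 FPKM in q2 and 1401 FPKM in q1) was called either. The erythroid list held 5 genes, but Hba-a1 and Hbb-b1 had no row under those symbols, so the erythroid sum leaves them out. Of the fibroblast markers, Dcn was higher in q2, at 1407 FPKM in q2 and 1259 FPKM in q1, and the other 2 were lower, among them Col1a1 at 66.1 FPKM in q2 and 128 FPKM in q1 (unadjusted Cuffdiff p = 0.0147 in the authors' deposited table). All 4 muscle fibre markers and all 3 tested erythroid markers were higher in q2, and all 4 endothelial markers were lower. Tnnc2, a muscle fibre marker, was at 1101 FPKM in q2 and 517 FPKM in q1 (unadjusted Cuffdiff p = 0.0145 in the authors' deposited table). The 5 neutrophil markers, S100a8, S100a9, Ngp, Camp and Ltf, were all called higher in q2 and summed to 13685 FPKM there, against 1019 FPKM in q1. The part of other cell types in the ribosomal protein values was not tested, and fewer cells of a type cannot be told apart from less RNA per cell in such samples.

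The cytosolic ribosome is built from ribosomal RNA and about equal numbers of molecules of each ribosomal protein. The small subunit decodes the mRNA, and the large subunit joins amino acids and carries the exit tunnel for the new chain. Mammalian mRNAs for ribosomal proteins are short and abundant, and they typically begin with a tract of pyrimidines, the 5′ terminal oligopyrimidine or TOP motif, through which mTOR signalling and the protein LARP1 control their translation together. Adult satellite cells are mostly quiescent and are known to raise ribosome production when they are activated.

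Pyrimidine runs were looked for at the annotated starts of the members. RefSeq promoters on GRCm38.p6, running from 250 bases before to 50 bases after an annotated start, were found for 59 of the 79 members, with 70 starts in all. Rpl30, Rpl32 and Rpl3 are among the members without an entry. An unbroken run of at least 8 pyrimidines (C or T) on the coding strand, reaching within 10 bases of the start, occurred at 27 of 70 member starts (38.6%), against 13.6% of 32781 other starts. C was the start base itself at 28.6% of member starts and at 16.3% of other starts. The following windows of 15 bases on each side of the start show members with long runs and then 3 without one. The capitals mark the longest pyrimidine run that touches the 20 bases around the start, as far as it lies inside the window.
Rpl35, chr2:39005117-39005146, minus strand: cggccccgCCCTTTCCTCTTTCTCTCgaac
Rpl7a, chr2:26910792-26910821, plus strand: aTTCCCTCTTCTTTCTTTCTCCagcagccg
Rpl27a, chr7:109519180-109519209, plus strand: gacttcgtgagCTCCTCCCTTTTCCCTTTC
Rpl15, chr14:18270972-18271001, minus strand: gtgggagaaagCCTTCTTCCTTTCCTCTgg
Rpl38, chr11:114668565-114668594, plus strand: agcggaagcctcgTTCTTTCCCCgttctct
Rplp2, chr7:141447636-141447665, plus strand: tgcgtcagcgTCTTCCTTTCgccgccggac
Rps6, chr4:86857353-86857382, minus strand: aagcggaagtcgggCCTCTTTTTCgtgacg
Rps18, chr17:33955651-33955680, minus strand: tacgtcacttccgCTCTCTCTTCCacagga
Rpl41, chr10:128549154-128549183, minus strand: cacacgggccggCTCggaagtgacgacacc
Rpl5, chr5:107900513-107900542, plus strand: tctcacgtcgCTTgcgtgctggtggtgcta
Rpl3l, chr17:24727811-24727840, plus strand: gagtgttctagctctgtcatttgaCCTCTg

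The last 3 had no run of 8 within 10 bases of the annotated start, which says only that these letters are not in that window. Among them is Rpl41, the member with the highest level.

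A pair of sequence motifs was also more frequent in member promoters. CCGGAAG, a site of ETS-family factors, was found on either strand in 25 of 70 member promoters (35.7%), against 8.80% of other promoters. TCTCGCG, on either strand, was found in 14 of 70 member promoters (20.0%), against 2.52% of others. Matches of this motif on opposite strands can overlap. CCAAT, on either strand, was found in 31.4% of member promoters and in 37.4% of others, and TATAAA in 8.57% and 13.6%. The 100 bases below run from 85 before to 15 after the start and are shown for the most abundant member, for a pair of members with TCTCGCG and for the muscle paralog Rpl3l, with both motifs in capitals. Rpl26 carries both motifs, Rps28 TCTCGCG and Rpl41 CCGGAAG alone, and Rpl3l, shown at the first of its 2 annotated starts, carries neither in this window.
Rpl41, chr10:128549154-128549253, minus strand: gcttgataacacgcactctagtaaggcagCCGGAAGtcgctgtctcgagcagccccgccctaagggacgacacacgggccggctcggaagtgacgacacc
Rpl26, chr11:68901481-68901580, plus strand: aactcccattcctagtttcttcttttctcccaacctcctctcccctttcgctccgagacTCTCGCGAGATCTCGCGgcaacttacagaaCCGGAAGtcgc
Rps28, chr17:33824548-33824647, minus strand: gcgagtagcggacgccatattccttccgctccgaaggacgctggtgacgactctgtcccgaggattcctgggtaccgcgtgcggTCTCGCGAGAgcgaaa
Rpl3l, chr17:24727741-24727840, plus strand: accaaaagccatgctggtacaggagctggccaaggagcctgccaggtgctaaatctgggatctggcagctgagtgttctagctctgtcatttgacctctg

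The genes lie on 19 chromosomes, with 14 on chromosome 7 and 4 on the X chromosome, and all 79 overlapped the RefSeq gene of the same symbol on GRCm38. Their messages were short. Over the 78 tested members the median annotated transcript was 774.5 bases long and the median 3′ UTR 65.5 bases, against 2779 and 869 bases over 13025 other tested genes (GENCODE vM21, shortest of the best supported coding transcripts). The pentamer ATTTA, the core of the AU-rich elements that AUF1 binds, occurred in the 3′ UTR of 13 of the 78 members (16.7%), against 63.5% of the other tested genes. The share was 52.0% among 808 other tested genes with a mean of at least 100 FPKM, whose median 3′ UTR was 503 bases. A longer 3′ UTR has more room for a pentamer, and the shares were not adjusted for length. Rps15a and Rps20, with annotated 3′ UTRs of 4722 and 3167 bases, are among the 13. With the longest instead of the shortest such transcript the shares were 19.2% for members and 65.9% for all other tested genes. The 13 members with ATTTA had a median log2 difference of -0.021 and the 65 without it one of 0.12. Among other tested genes the medians were -0.043 with ATTTA and 0.033 without it.

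Ribosomal protein messages were among the most abundant of the table. The members summed to 54821 FPKM in q2 and 52396 FPKM in q1, which is 7.95% of the summed values of all rows in q2 and 8.24% in q1. By the mean of both conditions, 47 members stood among the 200 highest rows, and 71 of the 79 had a mean of at least 100 FPKM. The median level over the 48 large-subunit rows was 582 FPKM in q2 and 573 FPKM in q1. Over the 31 small-subunit rows it was 614 FPKM in q2 and 557 FPKM in q1. Values of different genes can be set side by side because FPKM is per length, but the copies of ribosomal protein genes elsewhere in the genome make single values uncertain.

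**Figure D1:**
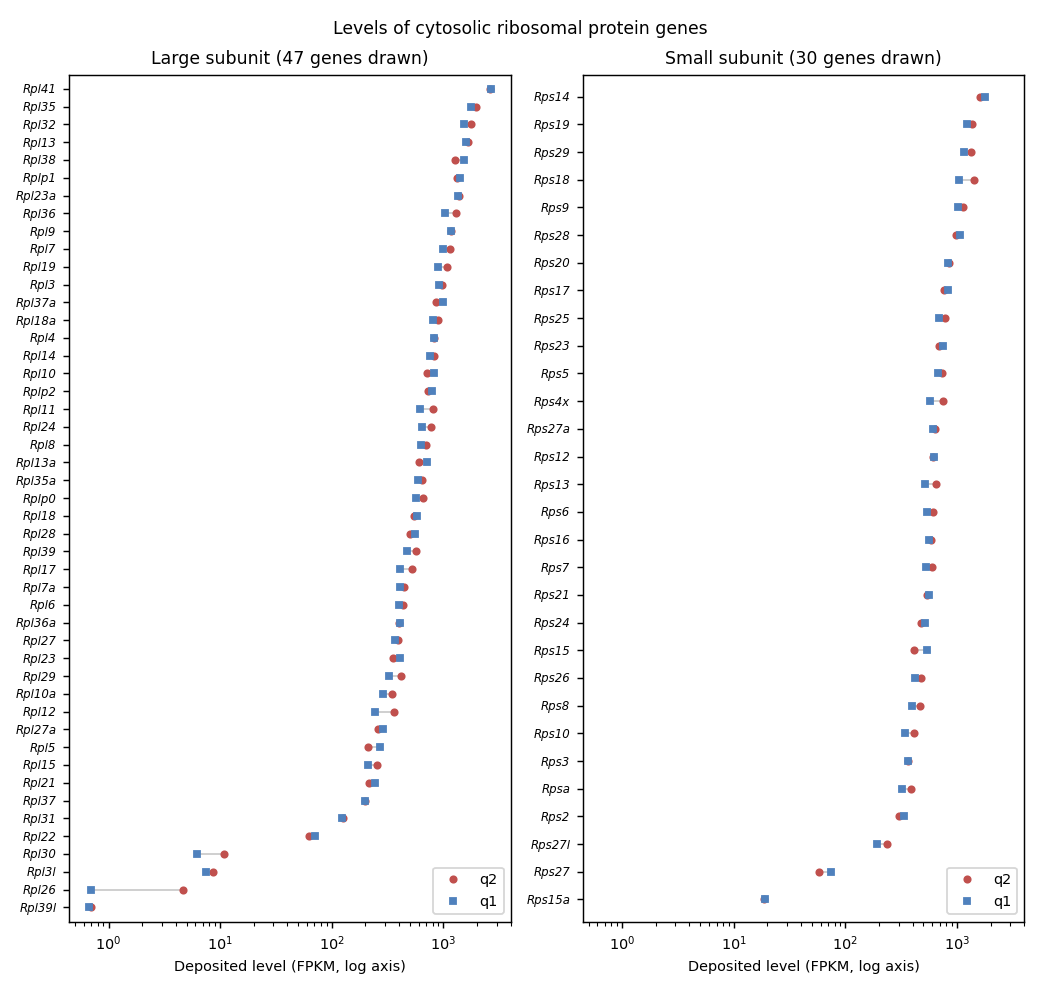
Deposited level of members above 0 in q2 (circles) and q1 (squares), in FPKM on a log axis, with 47 large-subunit genes in the left panel and 30 of the 31 small-subunit genes in the right panel, ordered by mean. Of the 79 genes, 30 have a mean of 500 to 1000 FPKM and 17 a higher one, with both conditions close together; Rpl39l, Rpl26, Rpl3l and Rpl30 lie lowest, and Rpl10l, listed at 0, is not drawn.

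Rpl41 codes for the smallest ribosomal protein, with a coding sequence of 78 bases. It was the highest member, at 2618 FPKM in q2 and 2652 FPKM in q1 in the authors' deposited table. A row merging Gm9846 and Rps27, outside the naming rule and described below, was higher, at 3610 FPKM in q2 and 2971 FPKM in q1. Rpl35, a protein beside the exit tunnel, was the next member, at 1947 FPKM in q2 and 1776 FPKM in q1 there. Rps14, whose loss of 1 copy underlies the anaemia of the human 5q- syndrome, was at 1599 FPKM in q2 and 1784 FPKM in q1 in the authors' deposited table. The conditions thus changed places between neighbours in this order, with Rpl35 higher in q2 and Rps14 higher in q1.

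Rpl32 was at 1768 FPKM in q2 and 1538 FPKM in q1, and Rpl13 at 1675 FPKM in q2 and 1608 FPKM in q1 in the authors' deposited table. Rpl38, known in mice from the Tail short mutation and for its role in translation of Hox mRNAs, was at 1269 FPKM in q2 and 1516 FPKM in q1 in the authors' deposited table. Rpl23a, another protein at the exit tunnel, was at 1385 FPKM in q2 and 1348 FPKM in q1 there. Of these 4 genes, Rpl38 alone had its lower value in q2.

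Rplp1 and Rps19 were also among the 10 highest. Rplp1, an acidic protein of the stalk that recruits elongation factors, was at 1319 FPKM in q2 and 1421 FPKM in q1 in the authors' deposited table. Rps19, the gene most often mutated in human Diamond-Blackfan anaemia, was at 1359 FPKM in q2 and 1230 FPKM in q1 in the authors' deposited table. The largest difference among these genes was 1.19-fold, that of Rpl38, which was lower in q2.

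No ribosomal protein gene passed the authors' test. None of the 78 tested members had a Cuffdiff q below 0.05 in the authors' deposited table, where 0.612% of all 14858 tested genes did, 0.498% higher and 0.114% lower in q2. The lowest q among the members was 0.999. None had an unadjusted Cuffdiff p below 0.05 either, a level reached by 5.99% of all tested genes and by 4.88% of the 1024 tested genes with a mean of at least 100 FPKM. The lowest p of a member was 0.124, for Rpl12. A p above the threshold does not show that a gene was equal in both conditions, and without values per sample no interval can be given.

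As a group the members lay close to 0. Their median log2 difference was 0.086, with 48 members higher and 30 lower in q2, and the interquartile range ran from -0.10 to 0.21. All tested genes above 0 in both conditions had a median of -0.014, with 48.7% of them higher in q2, and an interquartile range from -0.31 to 0.29. The 942 other tested genes with a mean of at least 100 FPKM and a finite difference had a median of 0.050, with 58.1% of them higher in q2. The small positive median of the ribosomal protein genes turned to -0.030 when both conditions were rescaled to the same total, since the summed values of the table were 1.08 times as high in q2 as in q1.

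The spread was narrow as well. Of the 78 members, 75 (96.2%) lay within 0.5 of 0 on the log2 scale, as did 83.9% of the other genes with a mean of at least 100 FPKM and 69.1% of all tested genes. The 3 members outside that band were Rpl26, Rpl30 and Rpl12, all higher in q2. A spread this narrow was not particular to the members. All 39 tested translation factors lay within that band. So did 43 of 45 ribosome biogenesis genes (95.6%) and 70 of 76 mitochondrial ribosomal protein genes (92.1%).

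**Figure D2:**
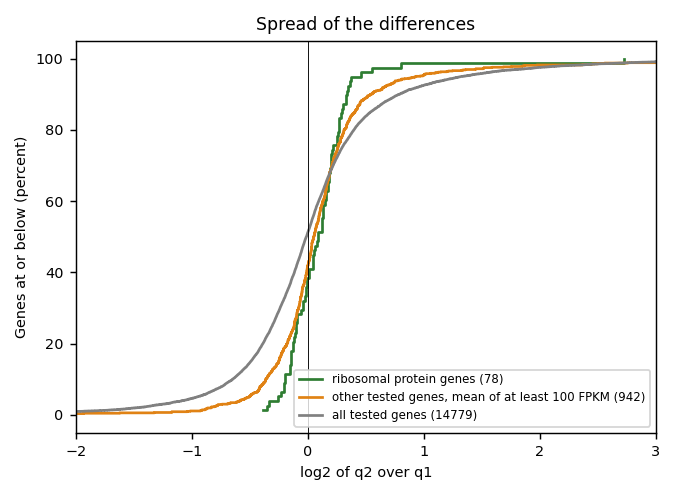
Cumulative share of genes (percent) by log2 of q2 over q1 for the 78 tested ribosomal protein genes, the 942 other tested genes with a mean of at least 100 FPKM and a finite difference, and all 14779 tested genes above 0 in both conditions, with the axis cut at -2 and 3. The curve of the ribosomal protein genes is the steepest of those drawn, with 96.2% of them within 0.5 of 0.

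The subunits had similar medians. The median log2 difference was 0.086 over 47 tested large-subunit genes (30 higher and 17 lower in q2) and 0.080 over 31 small-subunit genes (18 higher and 13 lower in q2). The difference between these medians, large minus small, was 0.0059. It changed sign under 3 other settings, reaching -0.050, so no order of the subunits can be read from it. The summed level of the large subunit was 33295 FPKM in q2 and 31912 FPKM in q1, a ratio of 1.04. That of the small subunit was 21526 FPKM in q2 and 20484 FPKM in q1, a ratio of 1.05. The large subunit therefore summed to 1.55 times the small subunit in q2 and to 1.56 times in q1.

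**Figure D3:**
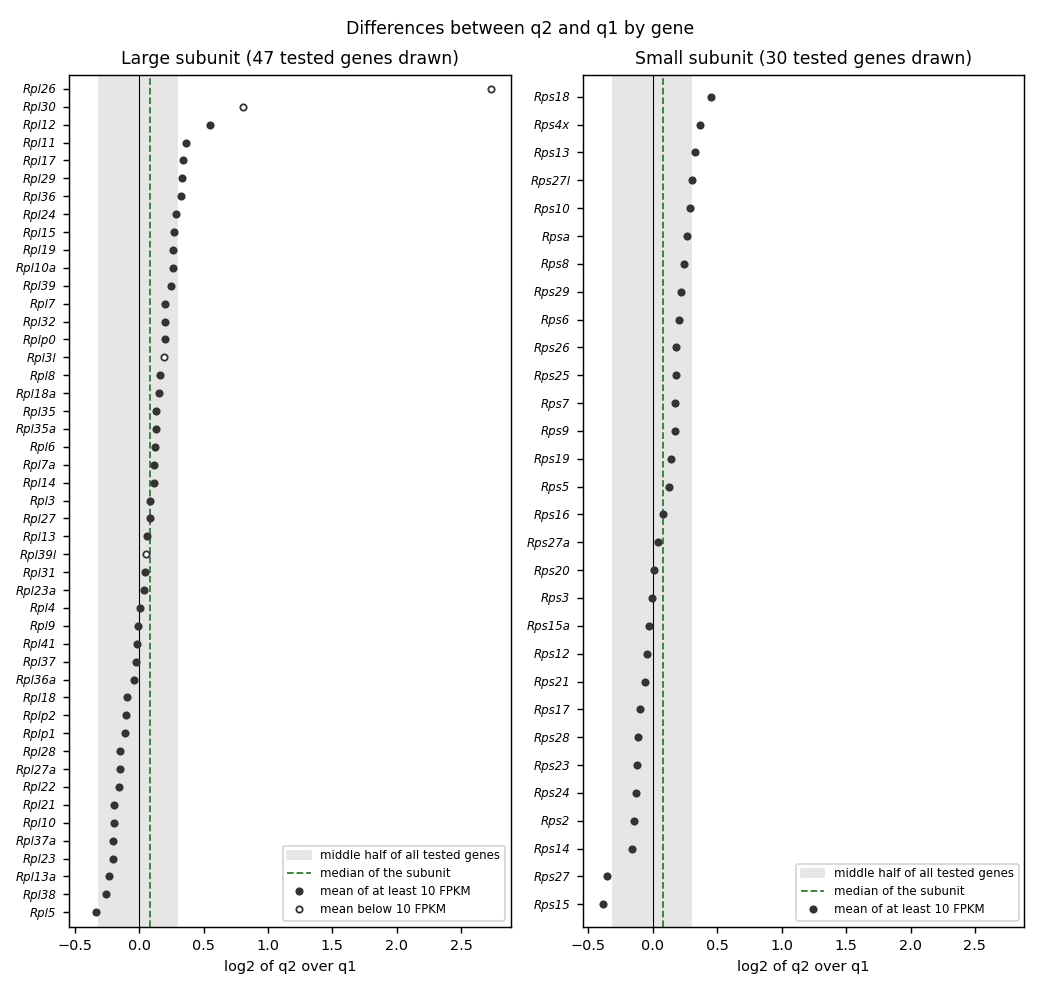
Log2 of q2 over q1 for 47 large-subunit genes (left) and 30 of the 31 small-subunit genes (right), ordered by size; the dashed line is the median of all tested genes of the subunit, the grey band the interquartile range of all tested genes, and open circles are genes with a mean below 10 FPKM. Both medians lie just above 0 (0.086 and 0.080), and Rpl26, at 2.73, stands far from the rest at a very low level.

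Proteins shared with bacteria and those found outside bacteria also had medians near 0. The median log2 difference was 0.11 over 18 universal large-subunit genes and 0.086 over 27 other large-subunit genes without the paralogs. It was 0.012 over 15 universal small-subunit genes and 0.16 over 16 other small-subunit genes, which here include Rps3a1, a row outside the naming rule. None of these genes was called.

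The largest differences above 0, among members of at least 10 FPKM and beside Rpl30, described below with its position, were those of Rpl12, Rps18, Rps4x, Rpl11 and Rpl17. Rpl12, which sits at the base of the stalk, was at 359 FPKM in q2 and 245 FPKM in q1, a log2 difference of 0.55 (Cuffdiff p = 0.124 in the authors' deposited table). Rps18, a protein of the head of the small subunit, was at 1432 FPKM in q2 and 1045 FPKM in q1, a log2 difference of 0.45 (Cuffdiff p = 0.221 in the authors' deposited table). Rps4x, the X-linked form of the protein S4, was at 743 FPKM in q2 and 576 FPKM in q1, with a log2 difference of 0.37 in the authors' deposited table. Rpl17, near the exit tunnel, was at 522 FPKM in q2 and 412 FPKM in q1 there, a log2 difference of 0.34. The rows of Rpl12 and Rpl17 each shared their position with 1 other row, and those of Rps18, Rps4x and Rpl11 with none.

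The largest differences below 0 were those of Rps15, Rps27, Rpl5, Rpl38, Rpl13a and Rpl23. Rps15, another protein of the head, was at 409 FPKM in q2 and 535 FPKM in q1, a log2 difference of -0.39 (Cuffdiff p = 0.833 in the authors' deposited table). Its row was listed at chr10:79697305-80369637 (GRCm38), a position shared by 46 rows, among them the neutrophil elastase gene Elane, which was at 255 FPKM in q2 and 18.9 FPKM in q1 in the authors' deposited table. Rpl13a, known in human monocytes as part of a complex that silences inflammatory mRNAs, was at 602 FPKM in q2 and 708 FPKM in q1, a log2 difference of -0.23 in the authors' deposited table. Rpl23, which can bind the p53 regulator Mdm2, was at 354 FPKM in q2 and 408 FPKM in q1 there, a log2 difference of -0.21. Rpl38, described above, had a log2 difference of -0.26, and its row shared its position with 4 other rows. The row of Rpl13a shared its position with 5 other rows, and those of Rps27, Rpl5 and Rpl23 with 1 each. None of these genes had a p below 0.05.

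Functional partners within the ribosome did not all lie on the same side of 0. Rpl11 and Rpl5 join 5S ribosomal RNA in a particle that also binds Mdm2. Rpl11 was at 802 FPKM in q2 and 622 FPKM in q1 (log2 difference 0.37), while Rpl5 was at 212 FPKM in q2 and 268 FPKM in q1 (log2 difference -0.34), with Cuffdiff p = 0.307 and 0.464 in the authors' deposited table. Rpl5 is the only member within 10 Mb of Hnrnpd, 7.92 Mb away on chromosome 5. The row of Rpl5 was listed at chr5:107900528-107987077 (GRCm38), a position shared with the row of Fam69a, while that of Rpl11 was shared with none. In the stalk, Rplp0 was at 652 FPKM in q2 and 569 FPKM in q1, and Rplp2 at 734 FPKM in q2 and 788 FPKM in q1 in the authors' deposited table, so that Rplp0 was the higher in q2 and both acidic proteins the lower. No pair difference was tested.

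Rps6, the protein that S6 kinases phosphorylate downstream of mTOR, was at 614 FPKM in q2 and 534 FPKM in q1, a log2 difference of 0.20 in the authors' deposited table. Rpl10a, a protein described in mouse embryonic stem cells as absent from part of the ribosomes, was at 345 FPKM in q2 and 288 FPKM in q1 there, a log2 difference of 0.26.

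Several of the lowest rows shared their position with a much higher row. Rpl26 was listed at 4.66 FPKM in q2 and 0.704 FPKM in q1, a log2 difference of 2.73 (Cuffdiff p = 0.344 in the authors' deposited table). At the same position, chr11:68901566-68904534 (GRCm38), the table lists the predicted gene Gm15772 at 892 FPKM in q2 and 792 FPKM in q1. Summed, the pair of rows gave 897 FPKM in q2 and 792 FPKM in q1, a log2 difference of 0.18. The same was found for Rpl30, at 10.9 FPKM in q2 and 6.23 FPKM in q1 in the authors' deposited table, which shares chr15:34440506-34443276 (GRCm38) with the predicted gene Gm12191, at 643 FPKM in q2 and 601 FPKM in q1. Their sum had a log2 difference of 0.11 in place of 0.81.

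Rps27 was listed at 57.7 FPKM in q2 and 73.9 FPKM in q1, beside a merged row for Gm9846 and Rps27 at the same position with 3610 FPKM in q2 and 2971 FPKM in q1 in the authors' deposited table. The row named Rps27 alone was thus 1.60% of the merged one in q2 and 2.49% in q1, and its log2 difference of -0.36 turned to 0.27 when both rows were summed. Rps15a, at 18.5 FPKM in q2 and 18.9 FPKM in q1 in the authors' deposited table, shares its position with no other row. With these 3 pairs summed and 5 genes outside the naming rule added, among them Rps3a1, Rpl34, Fau and Gnb2l1, the 83 values ran from -0.39 to 0.55, 54 higher and 29 lower in q2. This set was put together after the values were seen.

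**Figure D4:**
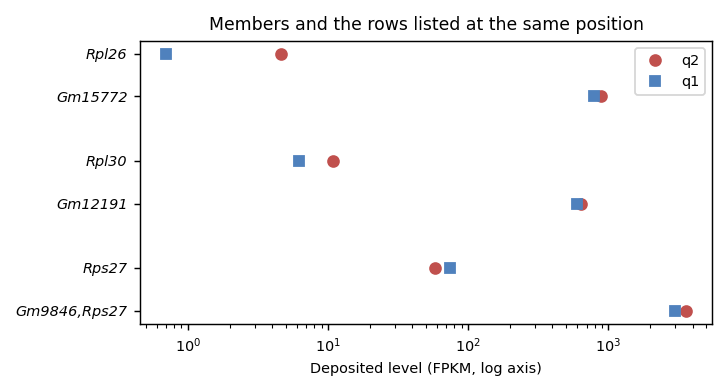
Deposited levels in q2 (circles) and q1 (squares), in FPKM on a log axis, of Rpl26, Rpl30 and Rps27 and of the row that the table lists at the same position as each. In each pair the row with the plain ribosomal protein symbol is the lower one. The log2 difference of the higher row is 0.17 beside Rpl26, 0.098 beside Rpl30 and 0.28 beside Rps27.

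Paralogs known from single tissues were low or at 0. Rpl3l, which replaces Rpl3 in adult skeletal and heart muscle, was at 8.59 FPKM in q2 and 7.52 FPKM in q1 in the authors' deposited table, or 0.888% of the level of Rpl3 in q2 and 0.825% in q1. Rpl39l, a paralog of Rpl39 best known from testis, was at 0.697 FPKM in q2 and 0.672 FPKM in q1, which is 0.124% of Rpl39 in q2 and 0.142% in q1 by the authors' deposited table. Rpl10l, a testis paralog of X-linked Rpl10, was listed at 0 in both conditions and was not tested by the authors. Rpl10 itself was at 713 FPKM in q2 and 818 FPKM in q1 in the authors' deposited table. Rps4l had no row under that symbol in the authors' deposited table.

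Other paralogs were expressed beside their partners. Rps27l, a p53-responsive paralog of Rps27, was at 238 FPKM in q2 and 193 FPKM in q1 in the authors' deposited table. Rpl22l1 was at 163 FPKM in q2 and 168 FPKM in q1 there, 2.58 times the level of Rpl22 in q2 and 2.40 times in q1. Rpl36al was at 51.8% of the level of Rpl36a in q2 and 50.03% in q1, and Rpl7l1 at 3.99% of that of Rpl7 in q2 and 3.83% in q1, again by the authors' deposited table. Rps27l was 4.12 times the row named Rps27 alone in q2 and 2.60 times in q1, and 6.48% of that row and the merged row together in q2 and 6.32% in q1. Reads shared between near copies can affect each of these ratios.

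Many members contain small nucleolar RNA genes, whose products guide modification of ribosomal RNA, in their introns. GENCODE vM21 places 56 such genes inside 29 of the 79 members on the same strand, 20 of them large-subunit and 9 small-subunit genes, with 5 in Rpl4 as the most. The median log2 difference was 0.039 over the 29 hosts and 0.13 over the other members. In all, 33 members shared their listed position with at least 1 other row.

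Levels were only loosely related to features of the genes. Across the 71 members with a mean of at least 100 FPKM, Spearman's rho with mean level was -0.30 for transcript length, which FPKM also divides by, and 0.14 for the GC content of the coding sequence. The log2 difference had a rho of -0.058 with mean level and of -0.017 with transcript length. These values are across genes of 1 table, and genes are not independent replicates. Members with a pyrimidine run at the start had a median level of 609 FPKM in q2 and 595 FPKM in q1 (25 genes with a mean of at least 100 FPKM), and those without it 588 FPKM in q2 and 535 FPKM in q1 (27 genes). Their median log2 differences were 0.12 with the run and -0.0078 without it. For CCGGAAG the medians were 0.18 with the motif (22 genes) and 0.0011 without it (30 genes), all inside the interquartile range of all tested genes.

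Other ribosomal genes were not called. Of all tested genes, 0.612% were called. At that share, a list as short as this or those below would hold few or no called genes, so a lack of calls says little. Among ribosomal proteins that the naming rule leaves out, Fau, which makes a small-subunit protein fused to a ubiquitin-like one, was at 916 FPKM in q2 and 823 FPKM in q1 in the authors' deposited table. None of the 6 genes tested of this list was called, and their median log2 difference was 0.094.

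The genes around the ribosome were not called either. Of 76 mitochondrial ribosomal protein genes, 44 lay above and 32 below 0, with a median of 0.038; Mrpl33 was at 312 FPKM in q2 and 245 FPKM in q1 and Mrps21 at 227 FPKM in q2 and 216 FPKM in q1 in the authors' deposited table. Of 45 ribosome biogenesis genes, 18 lay above and 27 below 0, with a median of -0.098; the nucleolar chaperone gene Npm1 was at 333 FPKM in q2 and 288 FPKM in q1, and Sbds, which helps to release a factor from new large subunits, at 182 FPKM in q2 and 177 FPKM in q1 in the authors' deposited table. Of 39 tested translation factors, 21 lay above and 18 below 0, with a median of 0.017; Eef1a1, which delivers aminoacyl-tRNA, was at 2561 FPKM in q2 and 2402 FPKM in q1, and Eif1, which helps to select the start codon, at 2316 FPKM in q2 and 1947 FPKM in q1 in the authors' deposited table. Biogenesis genes and ribosomal protein genes thus had medians on opposite sides of 0, both smaller than the spread within either list.

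Regulators of ribosome production were not called either. None of 20 mTOR and Myc regulators was called, and 2 had an unadjusted Cuffdiff p below 0.05 in the authors' deposited table. Of all tested genes, 0.612% were called and 5.99% had such a p. Both were named after their values were seen. Mxd1, an antagonist of Myc, was at 16.0 FPKM in q2 and 6.60 FPKM in q1 (Cuffdiff p = 0.00045 with a q-value of 0.0669, both from the authors' deposited table). Ddit4, an inhibitor of mTOR complex 1, was at 9.84 FPKM in q2 and 4.94 FPKM in q1 (Cuffdiff p = 0.0319 in the authors' deposited table). Myc itself was at 118 FPKM in q2 and 105 FPKM in q1, and Rheb, which activates mTOR, at 76.9 FPKM in q2 and 67.4 FPKM in q1 in the authors' deposited table. The list had a median log2 difference of 0.10.

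The p53 pathway genes were not called, with 4 above and 4 below 0 and a median log2 difference of 0.15. The list concerns the response to disturbed ribosome assembly and holds Trp53 itself and its regulators Mdm2 and Mdm4 beside p53 targets. Cdkn1a, an inhibitor of the cell cycle, was at 315 FPKM in q2 and 238 FPKM in q1, and Bax, which promotes cell death, at 92.8 FPKM in q2 and 95.8 FPKM in q1 in the authors' deposited table.

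**Figure D5:**
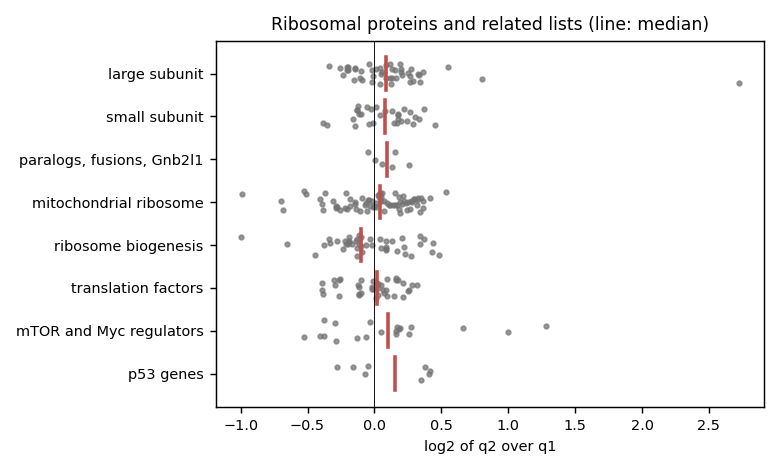
Log2 of q2 over q1 for each tested gene (points, spread vertically for legibility) of both subunits and of 6 related lists, with the median of each as a vertical line. All medians lie between -0.098 and 0.15, and the points of the regulators reach from -0.53 to 1.28.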

How the data were processed

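RNA of 3 AUF1-null and 3 wild-type samples was sequenced by the submitters. The tools, per the submitters' processing notes, were TopHat2 (version 2.0.9) with Cufflinks (version 2.2.1); these notes name mm9, but all 79 members lie at their GRCm38 positions, so coordinates are given on GRCm38, 1-based. The authors deposited 1 table in the Cuffdiff layout, with a level per condition that pools the replicates, a log2 fold change of q2 over q1, a test statistic (a score, not used), a p-value and a q-value. The heading names no unit for the levels, and FPKM is inferred from that layout. Sequencing depth, annotation, strand setting and normalization were stated by none of the sources. Of 23361 rows, 14858 had the status OK and count as tested.

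From the deposited values, log2 differences, medians, counts and sums were computed (Python 3.11.15, pandas 2.3.3, NumPy 2.4.6). No test was run, since the table has no values per sample. A gene was called at the authors' q below 0.05, and p-values were adjusted again by Benjamini-Hochberg where rows were filtered. The adjustment was checked on fixed p-values with a known answer, and the medians on simulated data. Named genes were the 10 highest members, the 6 largest differences above and below 0 among members of at least 10 FPKM, members below that or at 0, stalk and 5S proteins, Rps6, Rpl38, Rpl10a, paralog pairs, and the called or 2 highest genes of each list. Of the genes this rule names, 2 are not reported here, though counts, medians and sums include them. The members and lists were chosen with earlier results of these data known. Promoters are from RefSeq (GRCm38.p6); motifs and annotation features were chosen after the values were seen. Alternatives covered thresholds, pseudocounts, filters, scaling and membership.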

Additional observations from a re-analysis of the deposited data

How the results depend on the processing

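The count of called ribosomal protein genes was 0 under all 4 other settings (q below 0.1 or 0.01, unadjusted p below 0.05, and rows of at least 1 FPKM with p-values adjusted again). The setting of q below 0.01 could give no other count, because the lowest Cuffdiff q of all tested genes was 0.0108. Pseudocounts of 0.1, 1 and 10, filters on the mean, centring on the median of all tested genes, leaving out paralogs and ignoring the status kept the sign of the medians of both subunits and moved them by less than 0.1. Rescaling both conditions to the same total turned them round, to -0.030 for the large subunit, -0.036 for the small subunit and -0.030 for all members, and the log2 ratios of the summed levels to -0.055 for the large and -0.045 for the small subunit, because the total was higher in q2. The difference of medians, large minus small, became -0.042 with a mean of at least 100 FPKM, -0.050 with rows at the same position summed and 5 genes added, and -0.0029 without Rps15 and Rpl38; the cause was not tested, and the last 2 settings were chosen after seeing the data. No paired analysis was possible because the table pools the replicates of each condition. For the same reason no replicate could be left out, and how far 1 sample sets a value is unknown. Depth is unknown, so no counting interval is given.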

Other observations

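The table also holds 6 rows named as pseudogenes of ribosomal protein genes. Rpl34-ps1 was at 68.4 FPKM in q2 and 44.7 FPKM in q1, and Rps15a-ps6 at 16.0 FPKM in q2 and 29.0 FPKM in q1 in the authors' deposited table. The row that merges Rpl34 with Rpl34-ps1 was at 687 FPKM in q2 and 672 FPKM in q1 there. Rps3a1, a small-subunit gene outside the naming rule, was at 1274 FPKM in q2 and 957 FPKM in q1, a log2 difference of 0.41 (Cuffdiff p = 0.349 in the authors' deposited table).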
